A study of Mus musculus with 6 samples.

Results

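The genes described here are effectors of the mature osteoclast, the multinucleated cell that resorbs bone. They were chosen by name. Ctsk, Mmp9 and Mmp14 encode matrix-degrading enzymes, Acp5 an acid phosphatase, and Dcstamp and Ocstamp fusion proteins. Car2, Snx10, Plekhm1 and Calcr act in acid supply, vesicle traffic and hormone sensing. Of these 10 genes, 9 had a row among the 22271 genes of the count table. Calcr, the calcitonin receptor, was not analysed here.

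An osteoclast forms when myeloid precursors exposed to M-CSF and RANKL fuse with one another. The fused cell seals off a patch of bone, pumps protons across a folded membrane called the ruffled border and releases proteases into the acid space beneath it. Expression of these effector genes is a late step of differentiation, driven by the transcription factor NFATc1 together with PU.1, AP-1 and factors of the MITF/TFE family.

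Both populations were progenitors sorted out of marrow from C57BL/6JRj mice: MODP, with high CD27, and MOP, with low CD27. The sort marker CD27 belongs to the TNF receptors. The title of the series describes a progenitor of macrophages and osteoclasts (MOP) downstream of one that can also give dendritic cells (MODP), and each population had 3 libraries of total RNA. All sample titles carry the letters WT. The labels give no treatment, age or pooling, and they do not say whether libraries came from separate mice, so p-values reflect only the spread of these libraries, part of which may be technical. The labels name no culture toward osteoclasts.

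Libraries held 10701425 to 15892640 counts. Cd27 itself ranged from 35.4 to 38.9 CPM (counts per 1000000, with TMM-scaled library sizes) over the MODP libraries and from 3.52 to 4.57 CPM over the MOP libraries, in the direction of the labels. Replicate 2 of each population stood apart from the others in the markers of mature neutrophils, whose summed level was 17930 and 12490 CPM there and 2362 to 5431 CPM elsewhere. It also stood apart in the stromal and osteoblast markers, at 3478 CPM in MODP replicate 2 and 526.9 CPM in MOP replicate 2 against 42.5 to 131 CPM in the other libraries. Member results are given with and without these libraries where they change.

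Acp5, an acid phosphatase, and Snx10 and Plekhm1, of vesicle traffic, were higher in MOP, by 1.27- to 1.95-fold. Car2 and Mmp14 differed by 2.25- and 2.43-fold and missed the threshold in the main test, Mmp9 did not pass, and the fusion genes were at the limit of detection in both populations. Of the 9 genes with a row, 6 had enough counts for the test. By edgeR's quasi-likelihood test, adjusted over 12850 genes by the method of Benjamini and Hochberg, 3 of them, Acp5, Snx10 and Plekhm1, were higher in MOP and 0 were lower, where 16.3% of all tested genes were higher and 14.9% were lower. At an unadjusted p under 0.05, 5 were higher and 0 lower (all tested genes, 21.2% and 21.2%), and DESeq2 also called 5 and 0 (16.2% and 13.2%). In a fit blocked by replicate number, which compares each MOP library with the MODP library of the same number, Mmp14 and Car2 passed as well, so that 5 were higher and 0 lower, where 21.2% of all tested genes were higher and 19.8% were lower. Without replicate 2 of both populations the counts were again 5 and 0 (18.4% and 15.6%). All 3 MOP libraries lay above all 3 MODP libraries for 5 of the 6 tested genes, all but Mmp9, against 23.8% of all tested genes. The median log2 fold change of the 6 was 0.82 and that of all tested genes was -0.01. The 3 genes that failed the count filter, Ctsk, Dcstamp and Ocstamp, are not part of these counts.

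**Figure D1:**
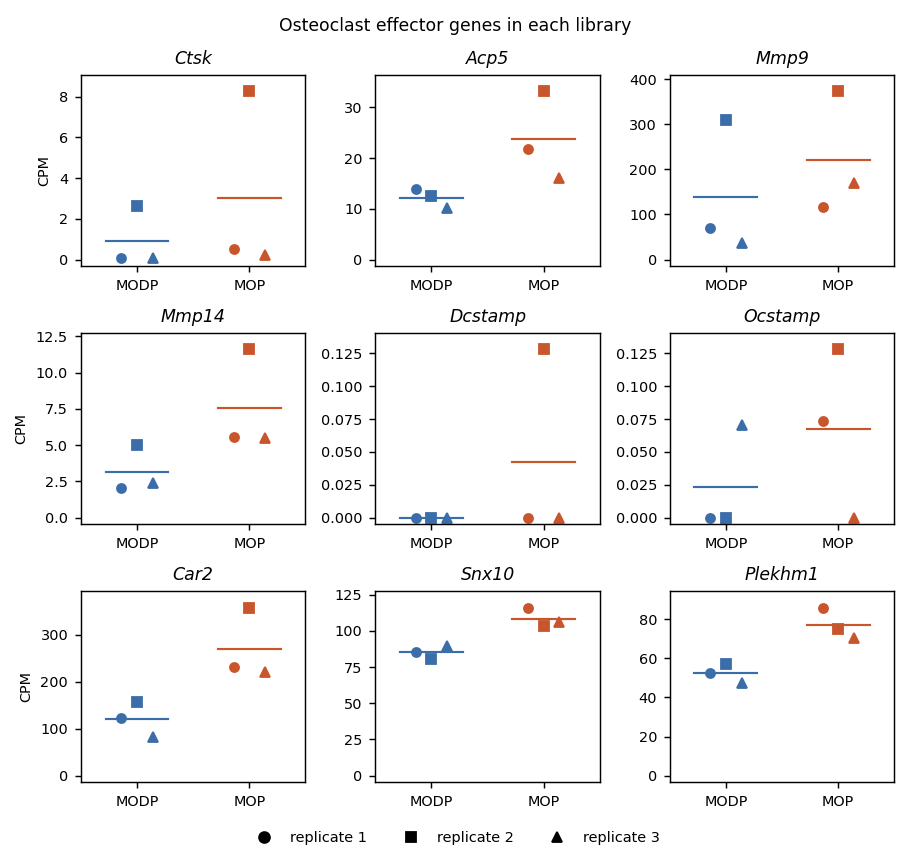
CPM of the 9 genes in each library, with MODP in blue and MOP in orange; the symbol gives the replicate number, the horizontal line is the mean of 3 libraries and each panel has its own linear axis. The groups do not overlap for Acp5, Mmp14, Car2, Snx10 and Plekhm1, and replicate 2 is the highest of its group for Ctsk, Mmp9, Mmp14 and Car2.

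Acp5 encodes tartrate-resistant acid phosphatase, the classical histochemical marker of osteoclasts, which macrophages also make. It was measured at 13.8, 12.6 and 10.3 CPM in the MODP libraries, in the order of replicates 1, 2 and 3, and at 21.8, 33.2 and 16.1 CPM in the MOP libraries. The groups did not overlap, and MOP replicate 2 was the highest library. The means were 12.2 ± 1.81 and 23.7 ± 8.70 CPM (SD, n = 3), which gave a log2 fold change of 0.96 ± 0.28 (SE, edgeR adjusted p = 0.0422). MOP was 1.58-, 2.63- and 1.57-fold above the MODP library of the same number, and the log2 fold change was 0.66 ± 0.20 without replicate 2 of both populations (edgeR adjusted p = 0.0416). It was 0.64 without MOP replicate 2 alone (edgeR adjusted p = 0.0443). Dropping 1 library at a time ended the call for 4 of 6, namely MODP replicates 1, 2 and 3 and MOP replicate 1 (edgeR adjusted p 0.0118 to 0.138 over the 6), as did testing without a filter on low counts (edgeR adjusted p = 0.125). Of 10 tested macrophage markers 2 were higher and 0 lower (0 lower also at an unadjusted p under 0.05 and by DESeq2), beside 16.3% and 14.9% of all tested genes. These markers summed to 132 to 220.8 CPM over the MODP libraries and to 206.6 to 331.2 CPM over the MOP libraries. None of 12 was at 0 in either population. Their part in the level of Acp5 was not tested.

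The promoter of Acp5 is shown because it holds the M-box, the sequence TCACATGA that MITF and TFE factors bind, and because Tfe3 and Tfeb were among the regulators higher in MOP. The window is the 250 bases before the most downstream of 3 start sites that RefSeq lists for Acp5 (GRCm38.p6, chr9:22130599-22130848, minus strand, written 5′ to 3′ on the gene's strand). Capitals mark the M-box, which begins 91 bases before the start site. The promoter of Ctsk (GRCm38.p6, chr3:95498960-95499209, plus strand) is set beside it because Spi1, the gene of PU.1, was also higher in MOP, and its capitals mark GAGGAA, a core that PU.1 can bind, on either strand (TTCCTC is its reverse complement).
Acp5: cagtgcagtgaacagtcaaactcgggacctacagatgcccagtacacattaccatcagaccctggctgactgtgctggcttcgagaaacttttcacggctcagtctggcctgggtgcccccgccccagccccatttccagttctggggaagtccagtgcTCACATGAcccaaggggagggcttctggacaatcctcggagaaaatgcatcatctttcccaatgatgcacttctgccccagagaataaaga
Ctsk: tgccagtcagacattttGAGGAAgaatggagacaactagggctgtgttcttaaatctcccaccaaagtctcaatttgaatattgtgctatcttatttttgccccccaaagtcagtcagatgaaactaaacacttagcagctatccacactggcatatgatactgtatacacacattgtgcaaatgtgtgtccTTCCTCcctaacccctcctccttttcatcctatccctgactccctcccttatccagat

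Of the members, 6 had a RefSeq window: Ctsk, Acp5, Mmp14, Snx10, Plekhm1 and Calcr. Each window of 250 bases was searched on both strands for TCACATGA, its core CACATG, which the M-box contains, the E-box CACGTG, the AP-1 sequence TGANTCA and GAGGAA. Among all 32851 windows in the table, TCACATGA was present in 0.846%, CACATG in 12.3%, CACGTG in 6.02%, TGANTCA in 6.75% and GAGGAA in 23.3%. Acp5 was the member with TCACATGA, in 1 of its 3 windows. Ctsk held GAGGAA at 233 and 58 bases before its RefSeq start site. That site is upstream of the Ctsk gene start in GENCODE M21, as the window ends at 95499209 and the gene begins at 95499256. Snx10 held GAGGAA in 1 window and TGANTCA in another, and the windows of Mmp14, Plekhm1 and Calcr held none of these letters. These matches describe the letters in the windows. Binding of MITF, TFE factors or PU.1 there, and a part of these factors in the levels of Acp5 and Ctsk, was not tested.

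Ctsk encodes cathepsin K, the collagen-cleaving protease that osteoclasts secrete into the resorption space. It drew 1, 28 and 1 reads from the MODP libraries, in replicate order, and 7, 129 and 3 reads from the MOP libraries, or 0.0822, 2.63 and 0.0703 CPM against 0.515, 8.26 and 0.228 CPM. Replicate 2 of each population held nearly all of its counts, and the groups overlapped. Every library held counts, but too few libraries held enough of them for Ctsk to enter the main test. In a fit without the count filter it was not called (log2 fold change 1.81, edgeR adjusted p = 0.626). Each MOP library was above the MODP library of the same number, by 3.14-fold in replicate 2, and the fit with the replicate block and no count filter, chosen after seeing the data, gave a log2 fold change of 1.74 ± 0.40 (SE, edgeR adjusted p = 0.000463). Without replicate 2, MODP was left with 2 libraries of 1 count each.

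Stromal cells and osteoblasts can express Ctsk as well, and, like Ctsk, 10 of their 14 listed markers were highest in replicate 2 among the MODP libraries and 14 of 14 among the MOP libraries. In MODP the exceptions were Cxcl12, Lepr, Pdgfrb and Spp1. In both populations replicate 2 was also highest for 14 of 14 erythroid, 14 of 14 neutrophil and 8 of 8 B cell markers. It was highest for 3 of 10 dendritic cell markers in each population. Being highest in replicate 2 was thus not particular to the stromal and osteoblast list, but the size of the rise differed between lists. In replicate order, the erythroid list summed to 451, 794.4 and 262 CPM in MODP and to 901.2, 1267 and 736.1 CPM in MOP. The neutrophil list summed to 3874, 17930 and 2362 CPM in MODP and to 3071, 12490 and 5431 CPM in MOP. The B cell list summed to 65.9, 137.6 and 43.5 CPM in MODP and to 39.3, 81.5 and 49.2 CPM in MOP. Col1a1, the main bone collagen chain, was at 0.493, 1727 and 49.2 CPM across the MODP libraries and at 3.17, 192 and 36.7 CPM across the MOP libraries. All 14 markers had counts, and none was at 0 in every library of a group. Summed, they came to 42.5, 3478 and 131 CPM for the MODP libraries in replicate order and to 51.6, 526.9 and 107 CPM for the MOP libraries. Ctsk in replicate 2 was 34.5 times the mean of replicates 1 and 3 in MODP and 22.2 times in MOP. Between MODP replicates 1 and 3, Ctsk was at 0.0822 and 0.0703 CPM while Col1a1 was at 0.493 and 49.2 CPM. MODP replicate 2, with the higher sum, had less Ctsk than MOP replicate 2. The part of these cells in the Ctsk counts was not tested. In bulk samples such as these, more cells of a type and more RNA per cell cannot be told apart.

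Mmp9, gelatinase B, degrades denatured collagen. Osteoclasts make it, and neutrophils store it in granules. It was measured at 69.8, 309.0 and 37.2 CPM in the MODP libraries, in the order of replicates 1, 2 and 3, and at 116, 373 and 170.5 CPM in the MOP libraries. The groups overlapped because MODP replicate 2 was above MOP replicates 1 and 3. The means were 139 ± 148 and 219.8 ± 135 CPM (SD, n = 3), which gave a log2 fold change of 0.67 ± 1.00 (SE) that missed the threshold (edgeR adjusted p = 0.67). It did not pass in any alternative either (adjusted p 0.144 to 0.978), while its log2 fold change ranged from 0.056 without MOP replicate 2 to 2.05 without MODP replicate 2. It was 1.01 ± 0.55 with the replicate block (SE, edgeR adjusted p = 0.299) and 1.43 ± 0.47 without replicate 2 of both populations (SE, edgeR adjusted p = 0.148). Each MOP library was above the MODP library of its number, by 1.66-, 1.21- and 4.58-fold.

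Neutrophil granule markers, like Mmp9, were highest in replicate 2 of each population. Their sum over 14 genes, none at 0 in either population, came to 3874, 17930 and 2362 CPM for the MODP libraries in replicate order and to 3071, 12490 and 5431 CPM for the MOP libraries. In replicates 1 and 2 this sum was lower in MOP than in MODP, while Mmp9 was higher in MOP. In replicate 3 both the sum and Mmp9 were higher in MOP. The genes of the list, of which S100a9 was the most abundant, were split. Like Mmp9, the markers Mmp8, Mmp25, Retnlg, Cxcr2 and Fpr1 were higher in MOP in every replicate. Ltf, Camp, Ngp, Lcn2, S100a8, S100a9, Chil3 and Itgb2l were lower in MOP in replicates 1 and 2, and Ly6g in replicate 2. Mmp8 and Mmp25, metalloproteinases of neutrophils, were also highest in replicate 2 of each population, at 189 and 258 CPM for Mmp8 and at 34.1 and 42.5 CPM for Mmp25. Of all tested genes edgeR called 16.3% higher and 14.9% lower. Of the 14 markers, 0 were called by edgeR, 0 had an unadjusted p under 0.05 and 0 were called by DESeq2. Their part in the level of Mmp9 was not tested.

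Mmp14 encodes MT1-MMP, a membrane-anchored collagenase that also activates other metalloproteinases. It was measured at 2.06, 4.99 and 2.39 CPM in the MODP libraries, in the order of replicates 1, 2 and 3, and at 5.52, 11.6 and 5.46 CPM in the MOP libraries. Every MOP library was above every MODP library, and replicate 2 was the highest of its group in both. The means were 3.14 ± 1.60 and 7.52 ± 3.52 CPM (SD, n = 3), a 2.43-fold difference that did not pass the main test (log2 fold change 1.28 ± 0.44 SE, edgeR adjusted p = 0.0675). Within replicate numbers MOP was 2.69-, 2.33- and 2.29-fold higher. In the fit blocked by replicate number its log2 fold change of 1.27 ± 0.18 SE was called (edgeR adjusted p = 0.000857), and without replicate 2 of both populations it was 1.30 ± 0.24 (edgeR adjusted p = 0.00531). It was also called by DESeq2 (adjusted p = 0.015) and without MODP replicate 2 alone (edgeR adjusted p = 0.0154, against 0.0803 to 0.199 without any other library).

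The fusion genes had 0 to 2 reads in each library. Dcstamp encodes DC-STAMP and Ocstamp encodes OC-STAMP, multipass membrane proteins without which osteoclast precursors do not fuse. Dcstamp had 0 counts in every MODP library and 0, 2 and 0 counts in the MOP libraries, in replicate order. Summed over libraries, the 0 counts of MODP allow up to 0.0810 CPM at 3 counts, or 0.0996 CPM as the exact Poisson 95% limit, and the 2 counts of MOP are 0.0472 CPM, with an exact Poisson 95% interval up to 0.171 CPM. Ocstamp had 0, 0 and 1 counts in MODP and 1, 2 and 0 counts in MOP, which is 0.0270 CPM with an interval up to 0.15 CPM and 0.0708 CPM with an interval up to 0.207 CPM. These intervals and limits cover counting error only. A difference between the populations was not detectable at this depth for either gene.

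Car2 encodes carbonic anhydrase II, which supplies the protons that osteoclasts pump onto bone and is also abundant in red cells and their precursors. It was measured at 122.5, 156 and 82.4 CPM in the MODP libraries, in the order of replicates 1, 2 and 3, and at 232, 358 and 219.8 CPM in the MOP libraries. All MOP libraries were above all MODP libraries. The means were 120.3 ± 36.8 and 269.9 ± 76.4 CPM (SD, n = 3), a 2.25-fold difference (log2 fold change 1.17 ± 0.32 SE) just outside the threshold in the main test (edgeR adjusted p = 0.0533). MOP was 1.89-, 2.30- and 2.67-fold above the MODP library of its number. In the fit blocked by replicate number it was called (log2 fold change 1.18 ± 0.10 SE, edgeR adjusted p = 0.000533), as it was without replicate 2 of both populations (1.14 ± 0.22, edgeR adjusted p = 0.0295), by DESeq2 (adjusted p = 0.00398) and without robust estimation (edgeR adjusted p = 0.015).

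Part of the erythroid markers were higher in MOP. The test placed 8 of that list's 14 genes higher and 0 lower (0 lower also at an unadjusted p under 0.05 and by DESeq2), beside 16.3% and 14.9% of all tested genes. The median log2 fold change of the list was 1.24. Summed, the 14 markers came to 451, 794.4 and 262 CPM for the MODP libraries in replicate order and to 901.2, 1267 and 736.1 CPM for the MOP libraries. None of them was at 0 in either population. Klf1, the transcription factor of red cell precursors, rose from 10.9 ± 2.33 to 29.9 ± 5.62 CPM (SD, n = 3). The adult globin gene Hbb-bs averaged 96.1 ± 92.5 and 95.8 ± 32.5 CPM and was not called (edgeR adjusted p = 0.996). The part of erythroid cells in the level of Car2 was not tested.

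**Figure D2:**
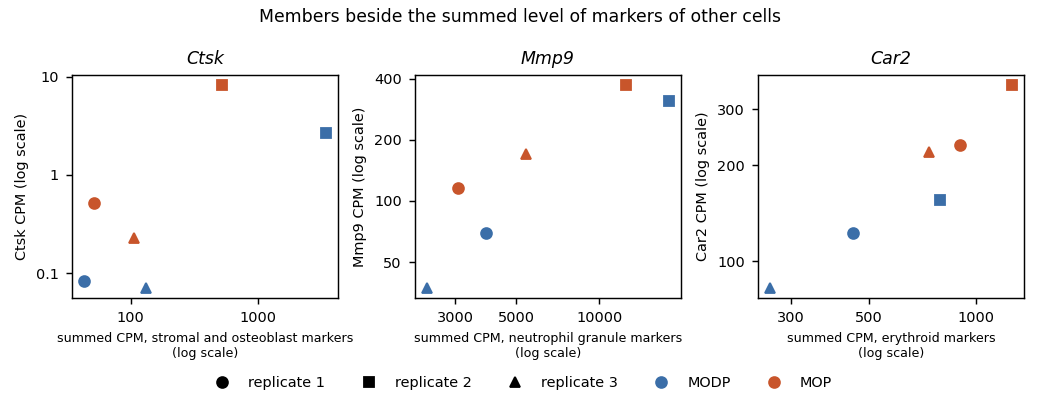
Each point is 1 library, with the CPM of Ctsk, Mmp9 or Car2 on the vertical axis and the summed CPM of a marker list on the horizontal axis, both on log scales; colour gives the population and symbol the replicate number. Replicate 2 of both populations has the highest values for Ctsk and the stromal sum and for Mmp9 and the neutrophil sum, and the erythroid sums of MOP are 736.1 to 1267 CPM against 262 to 794.4 CPM in MODP.

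Snx10 and Plekhm1 act in the traffic of endosomes and lysosomes toward the ruffled border, and loss of either causes osteopetrosis, a disease of dense and unresorbed bone. Snx10, a sorting nexin, was measured at 85.1, 80.5 and 89.8 CPM in the MODP libraries, in the order of replicates 1, 2 and 3, and at 116, 103 and 106 CPM in the MOP libraries. The groups did not overlap and the spread within each was small. The means were 85.1 ± 4.65 and 108 ± 6.76 CPM (SD, n = 3), a 1.27-fold difference (log2 fold change 0.35 ± 0.07 SE, edgeR adjusted p = 0.00615). The call held in every alternative (edgeR or DESeq2 adjusted p at most 0.0345).

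Plekhm1 is an adaptor that binds RAB7 and helps late endosomes and autophagosomes fuse with lysosomes. It was measured at 52.5, 57.1 and 47.4 CPM in the MODP libraries, in the order of replicates 1, 2 and 3, and at 85.9, 75.0 and 70.3 CPM in the MOP libraries. Every MOP library was above every MODP library. The means were 52.4 ± 4.83 and 77.1 ± 8.01 CPM (SD, n = 3), a 1.47-fold difference (log2 fold change 0.56 ± 0.10 SE, edgeR adjusted p = 0.00368). Its call also held in every alternative (adjusted p at most 0.0183). An antisense gene, Arhgap27os1, overlaps 5.60% of its exonic length in GENCODE M21, and since no source used here gives the strand setting of the counting, reads of that stretch cannot be assigned to either gene. The antisense gene 6530413G14Rik overlaps 6.75% of the exonic length of Acp5. Unlike Arhgap27os1 it has no row in the count table, and the strand of reads from that stretch is likewise not given.

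**Figure D3:**
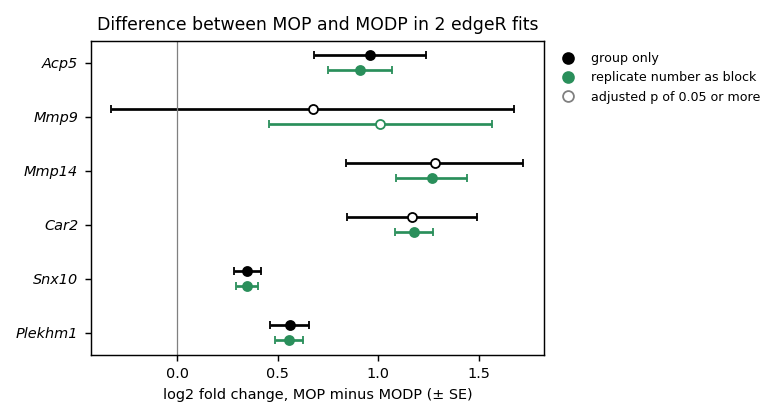
Log2 fold change of MOP over MODP for the 6 tested genes, with SE bars, in the edgeR fit with group alone (black) and in the fit blocked by replicate number (green); filled points have an adjusted p under 0.05. The point of Mmp14 moves from 1.28 to 1.27 and that of Car2 from 1.17 to 1.18, while their bars shorten from 0.44 to 0.18 and from 0.32 to 0.10.

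Levels were set against each other per kilobase of exon (CPM divided by exonic length in kilobases, GENCODE M21). By its mean level Car2 led the 9 genes, at 49.7 for MODP and 111 for MOP, followed by Mmp9 at 39.2 and 62.1, though the ranges of both genes overlapped (90.8 to 147.7 and 32.8 to 105.4 in MOP). Plekhm1 stood at 8.77 and 12.9, Snx10 at 9.16 and 11.7, and Acp5 at 6.02 and 11.7, all on this scale. The MOP ranges of these 3 genes overlapped, at 11.8 to 14.4, 11.1 to 12.5 and 7.92 to 16.3, so they could not be put in order. Mmp14 stood at 0.527 and 1.26 and Ctsk at 0.614 and 1.98, with overlapping ranges, and the fusion genes reached 0.016 for Dcstamp and 0.018 for Ocstamp in MOP. Among tested genes with a length, the mean level per kilobase of Car2 was at the 95.9th percentile, Mmp9 at 92.6, Plekhm1 at 61.1, Snx10 at 59.9, Acp5 at 55.3 and Mmp14 at 14.3.

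The relatives of the members in their gene families did not move as one. The main test called 16.3% of all tested genes higher and 14.9% lower, the shares to set beside the family counts below. Of the other matrix metalloproteinase genes, 7 of 19 were tested and 1 of these, Mmp11, was called, as lower, while 0 were called as higher (1 at an unadjusted p under 0.05 and 1 by DESeq2), with a median log2 fold change of 0.24. Mmp11, stromelysin 3, fell from 1.24 ± 0.390 to 0.279 ± 0.178 CPM (edgeR adjusted p = 0.0184), and without MOP replicate 1 that call was lost (edgeR adjusted p = 0.0556). With the replicate block, and without replicate 2 of both populations, 1 was higher and 2 were lower. Of 3 tested metalloproteinase inhibitor genes 0 were called by edgeR, at an unadjusted p under 0.05 or by DESeq2, and with the replicate block Timp2 was higher (log2 fold change 0.57 ± 0.13 SE, edgeR adjusted p = 0.00957) and 1 gene was lower, and without replicate 2 of both populations the counts were also 1 and 1. Timp2, a secreted inhibitor, was the most abundant of them, at 12.4 ± 4.47 and 18.1 ± 5.17 CPM (SD, n = 3).

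Cysteine cathepsins, the family of Ctsk, were tested in all 9 relatives listed. The test called 5 as higher in MOP and 2, Ctsf and Ctsw, as lower, beside 16.3% and 14.9% of all tested genes, with a median log2 fold change of 0.31. Ctsw is a cathepsin of cytotoxic lymphocytes. T and NK cell markers were lower in MOP for 6 of 8 genes, beside 14.9% of all tested genes, and none was at 0 in either population. These markers summed to 225.9 to 286.3 CPM in the MODP libraries and 67.5 to 106 CPM in the MOP libraries. Their part in the level of Ctsw was not tested. Ctsc, which activates granule proteases, rose by log2 1.33 ± 0.06, Ctsb, a general lysosomal protease, by 0.57 ± 0.06 and Ctsh, an aminopeptidase, by 1.17 ± 0.13 (SE; edgeR adjusted p = 4.29e-05, 0.000472 and 0.00144). The means of Ctsb were 414 ± 23.2 and 615 ± 16.1 CPM for MODP and MOP (SD, n = 3), against 0.929 ± 1.48 and 3.00 ± 4.56 CPM for Ctsk. Over the alternatives 4 to 5 relatives were higher and 1 to 3 were lower, the 3 without replicate 2 of both populations.

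Of the relatives of Acp5 among the acid phosphatases, 4 were tested and 1 of them, Acp6, a lysophosphatidic acid phosphatase, was lower (log2 fold change -0.51 ± 0.08 SE, edgeR adjusted p = 0.00198). Among 6 other carbonic anhydrase genes tested, Car1 was called as higher and 2 as lower (3 lower with the replicate block, by DESeq2 and without replicate 2 of both populations), with a median log2 fold change of -0.32. Car1, the abundant red cell isoform, rose from 41.5 ± 10.6 to 138 ± 41.2 CPM (edgeR adjusted p = 0.0128). The membrane-bound isoforms Car12 and Car9 fell by 1.52 ± 0.26 and by 0.59 ± 0.17 on the log2 scale (SE; edgeR adjusted p = 0.00338 and 0.0302), though Car9 lost its call without MODP replicate 1 or 3 or MOP replicate 1 or 2 (edgeR adjusted p 0.0747 to 0.11). Of the relatives of Calcr, 2 were tested and both were lower: Ramp1, an accessory protein of calcitonin family receptors, fell by 0.40 ± 0.05 and Calcrl, the receptor for CGRP and adrenomedullin, by 0.68 ± 0.20 on the log2 scale (SE; edgeR adjusted p = 0.000884 and 0.0326). Calcrl lost its call without MODP replicate 2 or 3 or MOP replicate 1 or 3 (edgeR adjusted p 0.0621 to 0.092).

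Of 16 listed genes that act beside Dcstamp and Ocstamp in cell fusion, 13 had enough counts to test, and Atp6v0d2, Adam12 and Tm4sf19 did not. The test called 4 of 13 as higher in MOP and 1, Cd81, as lower (2 lower with the replicate block), beside 16.3% and 14.9% of all tested genes. The median log2 fold change of the 13 was 0.14. Itgb3, the beta chain of the vitronectin receptor, rose by log2 0.89 ± 0.10, Sirpa, the receptor of CD47, by 0.61 ± 0.08 and P2rx7, an ATP-gated channel, by 1.27 ± 0.19 (SE; edgeR adjusted p = 0.000686, 0.00135 and 0.00371). Without MODP replicate 2, or without replicate 2 of both populations, 7 were higher. Atp6v0d2, the proton pump subunit of osteoclasts that is needed for fusion, drew 5, 1 and 2 reads from the MODP libraries and 7, 16 and 2 from the MOP libraries, in replicate order, and was too low to test; it was named after its values were seen.

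Genes for acid secretion and vesicle traffic at the ruffled border were called higher in MOP for 11 of 19 tested, beside 16.3% of all tested genes. Of these 19, edgeR and DESeq2 each called 11 as higher in MOP and 0 as lower (13 and 1 at an unadjusted p under 0.05), with a median log2 fold change of 0.21. Atp6v1b2, a subunit of the proton pump, rose from 245 ± 3.29 to 357 ± 18.8 CPM, Lamp2, a lysosomal membrane protein, from 339 ± 7.66 to 428 ± 7.08 CPM, and Atp6ap1, an accessory pump subunit, from 176 ± 3.82 to 219 ± 1.54 CPM (SD, n = 3; edgeR adjusted p = 0.000465, 0.00181 and 0.00186). Over the alternatives 8 to 14 were higher and 0 to 1 lower; the lower gene appeared with the replicate block, with or without the count filter, without MODP replicate 2 and when replicate 2 of both populations was dropped.

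Of 24 tested regulators of osteoclast differentiation, 10 were called as higher and 1, the kinase gene Src, as lower, beside 16.3% and 14.9% of all tested genes, with a median log2 fold change of 0.53. Tfe3 and Spi1, which encodes PU.1, rose by log2 0.89 ± 0.10 and 0.34 ± 0.05, and Tyrobp, the adaptor DAP12, by 0.97 ± 0.12 (SE; edgeR adjusted p = 0.000555, 0.00174 and 0.00168). Tfeb rose by 0.78 ± 0.12 (edgeR adjusted p = 0.00198) and Mitf had a log2 fold change of 0.30 ± 0.10 that did not pass (edgeR adjusted p = 0.0572); both bind the M-box and were named after their values were seen. Tnfrsf11a, the RANK receptor, drew 18, 22 and 16 reads from the MODP libraries and 50, 53 and 39 from the MOP libraries, in replicate order (log2 fold change 1.12 ± 0.28 SE, edgeR adjusted p = 0.018), and its call was lost without MODP replicate 1 or 3 or MOP replicate 1 or 2 (edgeR adjusted p 0.0529 to 0.0733). Nfatc1 had a log2 fold change of 0.15 ± 0.08 and did not pass (edgeR adjusted p = 0.225); it was called without MODP replicate 2 (edgeR adjusted p = 0.0237) and when replicate 2 of both populations was dropped (edgeR adjusted p = 0.0206). With the replicate block 18 regulators were higher, where 21.2% of all tested genes were, against 11 with the block by title number, 12 without replicate 2 of both populations and 7 to 18 over the alternatives. Src was not called in 9 of the 16 alternatives.

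Among the marker lists, basophil and mast cell markers stood furthest above MODP in MOP, with a median log2 fold change of 2.59. Of 10 tested genes 8 were higher and 1 lower, beside 16.3% and 14.9% of all tested genes. The list summed to 930.3 to 1492 CPM in the MODP libraries and to 3570 to 5523 CPM in the MOP libraries. Tpsb2 was at 0 in every MODP library and drew 0, 2 and 0 reads from the MOP libraries, in replicate order. The part of basophils and mast cells in the levels of the members and related genes was not tested.

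**Figure D4:**
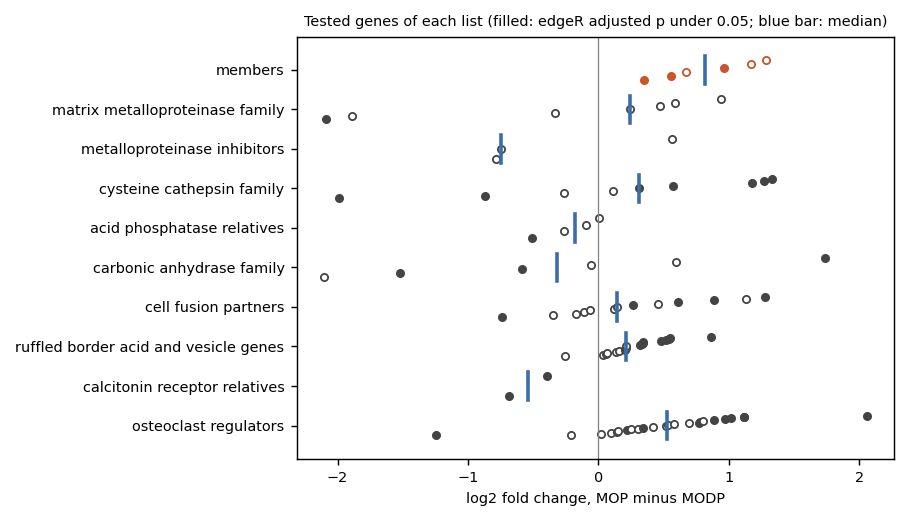
Log2 fold change of MOP over MODP for each tested gene of the members (orange) and of 9 related lists (black); filled points have an edgeR adjusted p under 0.05 and the blue bar is the median. The 6 tested members lie between 0.35 and 1.28, with a median of 0.82, and the medians of the related lists lie between -0.75 and 0.53.

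The genes whose log2 CPM varied most like that of the 3 members with the highest mean CPM, a scale not corrected for length, over the 6 libraries were looked up among 9323 other genes. For Car2 they were Sphk1, Rhd and Sec14l2, at Pearson r of 0.998, 0.997 and 0.995. For Mmp9 they were Fam160b1, Padi4 and Pilra, at 0.998, 0.997 and 0.997, and for Snx10 they were Agfg1, Plekhf2 and Cyp4f16, at 0.994, 0.994 and 0.993. With 6 libraries in 2 groups many genes reach such values, and r was above 0.95 for 209 genes with Car2, 107 with Mmp9 and 301 with Snx10.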

How the data were processed

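Per the labels' protocols, sorted progenitors gave total RNA for TruSeq libraries. The authors deposited raw read counts per Ensembl gene for 6 libraries; TopHat 1.4 and HTSeq appear in the submitters' processing notes. Genome build, annotation and strand setting: not given in the sources used here. Symbols and exonic lengths came from GENCODE M21 by identifier (20840 of 22271 matched).

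Counts were analysed in R 4.3.3 with edgeR 4.0.16: filterByExpr (12850 genes kept), TMM scaling, robust quasi-likelihood fit with group as the sole factor, Benjamini-Hochberg adjustment over all tested genes, threshold 0.05. SE is the log2 fold change divided by the square root of F. The code was tested on simulated counts. DESeq2 1.42.0, other scalings, filters, blocks and left-out libraries were alternatives.

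Titles carry WT1, WT2 and WT1 per group and table columns WT1, WT2 and WT3; columns were matched to samples by leading number. Deviations from group means over 9413 genes correlated at 0.593, 0.609 and 0.516 for equal column numbers and at -0.458 to 0.0591 otherwise. Deviations cancel within each group, so the negative values partly follow from the positive ones. Column numbers were taken as pairs in the fit blocked by replicate number, and the main test used no pairs.

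The members and lists were chosen with earlier results of these data known. All members are named; each related list names up to 3 called genes by smallest adjusted p, or its most abundant tested gene where none was called. Tnfrsf11a and Nfatc1 are named always; other genes were chosen after their values were seen. Promoter windows are RefSeq's (GRCm38.p6). No member shared more than 7.98% of the 31-mers of its longest transcript with other genes.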

Additional observations from a re-analysis of the deposited data

How the results depend on the processing

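Against 3 genes higher in MOP in the main test, 5 were higher with DESeq2, with a replicate block by column number or by title number and without replicate 2 of both populations, and 6 were higher with the replicate block and no count filter, an alternative chosen after seeing the data that adds Ctsk. In fits without a library the count was 2 to 3. No member was lower in any of the 16 alternatives, and no tested member changed direction. Snx10 and Plekhm1 kept their calls in all of them. Acp5 lost its call in 5, and Mmp14 and Car2, not called in the main test, gained one with the replicate block and in other alternatives named above; the causes were not tested. The replicate block changed no other call among tested members. Upper-quartile scaling changed no member's call, though over all tested genes it gave 1692 higher and 2452 lower against 2095 and 1913. Depth limits Dcstamp, Ocstamp and, in 4 libraries, Ctsk, for which few reads were counted.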

Other observations

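Mmp13, collagenase 3, was too unevenly detected to enter the test and was picked after its values were seen. It drew 0, 1 and 1 reads from the MODP libraries and 117, 361 and 5 reads from the MOP libraries, in replicate order. Chosen in the same way, the stromal and osteoblast markers Cxcl12, a chemokine of marrow stroma, and Spp1, osteopontin, were also higher in every MOP library than in any MODP library without passing the test (edgeR adjusted p = 0.0974 and 0.108). The other tested genes of that list had log2 fold changes below 0, and its median was -2.22. Of 9 tested genes 0 were called higher by edgeR (2 at an unadjusted p under 0.05 and 2 by DESeq2). Pdgfrb was the 1 gene called lower (log2 fold change -2.02, edgeR adjusted p = 0.00023). Of all tested genes 16.3% were called higher and 14.9% lower. The list summed to 42.5, 3478 and 131 CPM in the MODP libraries, in replicate order. In the MOP libraries it summed to 51.6, 526.9 and 107 CPM. MODP replicate 2 thus stood far above the rest, and in replicate 1 the sum was higher in MOP. Cxcl12 stood at 6.55, 29.6 and 2.35 CPM in MOP replicates 1 to 3 against 0.492 to 1.81 CPM in MODP, and Spp1 at 29.7, 62.9 and 13.3 CPM against 9.14 to 12.8 CPM.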
